A study of Mus musculus with 7 samples.

Results

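This account follows 10 noncoding RNAs named for their abundance in total RNA: Rn7sk, Malat1, Neat1, Rmrp, Rpph1, Meg3, H19, Gas5, Snhg1 and Kcnq1ot1. They were picked from the 28828 gene rows of the count table by symbol, because RNAs of this kind take a large share of counts in such libraries, so that their share of counts is a description and is not tested. A row was found for 8 of the 10, and Rmrp and Rpph1 are not analysed here. Lung RNA came from C57BL/6 mice in 2 groups, Scgb3a2 knockout (libraries KO3, KO4 and KO5) and wild type (WT2, WT3, WT4 and WT6). Scgb3a2 encodes a secretoglobin made mainly by airway club cells. The labels give no age, sex, litter or exact allele, and do not say whether each library is 1 mouse. The p-values therefore refer to variation among libraries, which may be technical. The design asks which lung transcripts differ when Scgb3a2 is disrupted.

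Several noncoding RNAs of this set act in the nucleus. Rn7sk (7SK) holds the elongation kinase P-TEFb in an inactive particle and so restrains RNA polymerase II. Malat1 collects in nuclear speckles, where splicing factors are stored, and Neat1 is the scaffold of paraspeckles. Kcnq1ot1, Meg3 and H19 are made from imprinted domains, and Gas5 and Snhg1 are spliced hosts whose introns carry small nucleolar RNAs. Rpph1 and Rmrp are the RNA subunits of RNase P and RNase MRP. In lung, Malat1 and Neat1 are known as abundant RNAs of most cell types, and H19 and Meg3 as RNAs of fetal growth.

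Sequence features behind these roles were read from the GENCODE M21 transcripts of GRCm38, the assembly also called mm10, and are written 5′ to 3′ with T for U. Rn7sk is a single exon of 331 bases on chromosome 9 (78175303 to 78175633, minus strand). Its first 110 bases (chr9:78175524-78175633, minus strand) are shown because this stretch folds into the hairpin that, in human 7SK, binds the P-TEFb inhibitor HEXIM1 at GAUC repeats, marked here as GATC in capitals.
Rn7sk: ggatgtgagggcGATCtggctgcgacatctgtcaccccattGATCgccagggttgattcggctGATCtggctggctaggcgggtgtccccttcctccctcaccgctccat
All 3 GATC matches of the transcript lie in this window, and 0.427% of the 138029 GENCODE transcripts that are long enough hold at least 3 in their first 110 bases. GATC reads the same on both strands.

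Malat1 (chromosome 19, 5795690 to 5802672, minus strand, 6983 bases) and Neat1 (chromosome 19, 5824708 to 5845478, minus strand, 20771 bases) lie 22035 bases apart. Malat1 and the long Neat1 isoform lack an ordinary poly(A) tail. Their 3′ ends are cut by RNase P and are protected by a triple helix in which an A-rich tract pairs with U-rich runs. The 100 bases that end with this tract (Malat1 chr19:5795982-5796081 and Neat1 chr19:5824708-5824807, both minus strand) are shown because they hold the feature the 2 RNAs share. Capitals mark the A-rich tract and every match to a U-rich run as defined below.
Malat1: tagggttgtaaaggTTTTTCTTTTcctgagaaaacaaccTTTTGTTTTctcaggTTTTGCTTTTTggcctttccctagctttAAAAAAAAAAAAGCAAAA
Neat1: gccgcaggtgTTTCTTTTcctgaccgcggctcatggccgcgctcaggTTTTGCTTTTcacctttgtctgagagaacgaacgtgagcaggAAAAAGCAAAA
The tract was searched on the transcript strand as AAAAAGCAAAA, which occurs once in each of the 2 RNAs and in 0.436% of 141767 GENCODE transcripts. A U-rich run was taken as at least 3 T on each side of 1 or 2 bases that are C or G. The Malat1 window holds 3 such matches and the Neat1 window 2. The middle Malat1 match overlaps a stretch complementary to gagaaaacaa shortly before it, so it may belong to a hairpin and not to the triple helix. Which matches pair with the tract was not tested. The Malat1 model goes on for 292 bases after the tract, and the Neat1 model ends with it.

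Gas5 and Snhg1 belong to a class of host genes whose transcripts often start in a run of pyrimidines, as transcripts of ribosomal proteins do. The 50 bases on each side of the RefSeq start sites (GRCm38.p6, chr1:161035116-161035215 for Gas5 and chr19:8723437-8723536 for Snhg1, both plus strand) are shown with the longest pyrimidine run near the start in capitals.
Gas5: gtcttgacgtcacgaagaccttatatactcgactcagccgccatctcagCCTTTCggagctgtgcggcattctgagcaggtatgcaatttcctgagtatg
Snhg1: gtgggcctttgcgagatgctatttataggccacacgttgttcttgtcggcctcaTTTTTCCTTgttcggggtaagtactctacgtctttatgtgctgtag
The run has 6 bases in Gas5 and spans the start site used. For each gene this was the most downstream RefSeq start, which lies downstream of the GENCODE gene start (161034422 for Gas5 and 8723475 for Snhg1). The run of Snhg1 has 9 bases and begins at base 5 counted from the start used. Such runs are common, since 35.2% of 32851 RefSeq promoters hold a run of at least 6 C or T between 10 bases before and 30 bases after the start, and 9.17% hold one of at least 9.

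The libraries held 13071262 to 16480006 counts each, and 25868 to 26885 genes had at least 1 count. Scgb3a2 checked the labels, with 1.72 ± 0.83 CPM in knockout lung (SD, n = 3) against 252 ± 41.3 CPM in wild type lung (SD, n = 4), a log2 fold change of -7.20 (adjusted p = 8.06e-07, edgeR). CPM are counts divided by the TMM-scaled library size (edgeR) and multiplied by 1e+06. KO5 and WT6 stood together across genotypes. Of 19832 genes tested, 16.7% were higher and 16.9% were lower in both of these libraries than in each of the other 5.

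The 8 RNAs together took 3.77%, 3.49% and 3.41% of counts in KO3, KO4 and KO5, against 3.58%, 3.76%, 3.63% and 3.15% in WT2, WT3, WT4 and WT6. The means were 3.56% ± 0.19 in knockout lung (SD, n = 3) and 3.53% ± 0.26 in wild type lung (SD, n = 4). The 2 groups overlapped, and the lowest share in each group belonged to KO5 and WT6. Nearly all of this came from Malat1, Rn7sk and Neat1.

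Abundance set the 8 RNAs far apart. By mean share of counts, Malat1 ranked 1, Rn7sk 4, Neat1 15 and Kcnq1ot1 150 among the 28828 rows. Gas5 ranked 5150, Meg3 9077, Snhg1 11565 and H19 19968, so the word abundant describes only some of the set in this tissue. Whether the RNAs were nuclear was not measured, since whole-tissue RNA was sequenced.

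Per length, the order was Rn7sk, Malat1, Neat1, Gas5, Kcnq1ot1, Snhg1, Meg3 and H19. In CPM per kb of annotated exon, Rn7sk averaged 34460 in knockout lung and 33050 in wild type lung, Malat1 2927 and 3038, and Neat1 148 and 136. Gas5 averaged 10.7 CPM per kb in knockout lung and 11.2 in wild type lung, and Kcnq1ot1 6.02 and 6.11. The last 3 were Snhg1 at 2.32 CPM per kb in knockout lung and 2.45 in wild type lung, Meg3 at 0.858 and 0.765, and H19 at 0.242 and 0.222. No pair of neighbours in this order overlapped in range over the 7 libraries, the closest as a ratio being Gas5 with a lowest value of 9.92 CPM per kb and Kcnq1ot1 with a highest of 6.54. The exon length counts every annotated isoform, which understates a gene such as Meg3 (18089 exon bases) if mostly short isoforms are made.

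**Figure D1:**
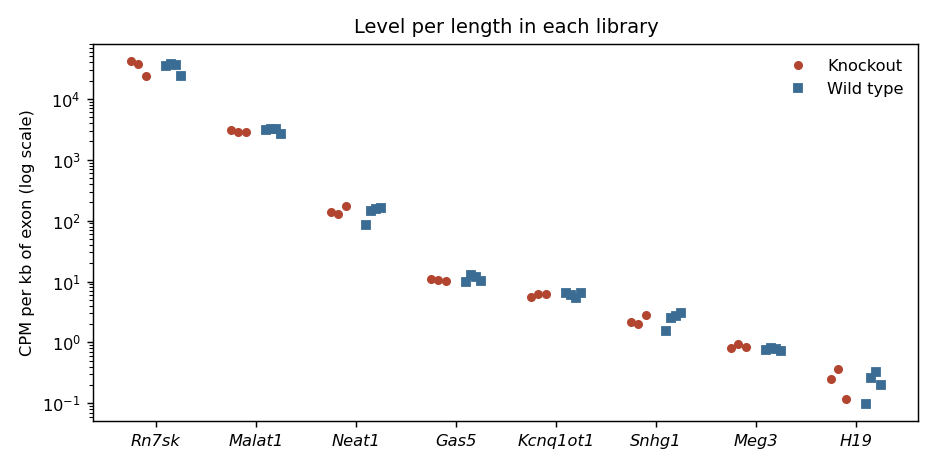
Level per length of the 8 noncoding RNAs, as CPM per kb of annotated exon on a log axis, with 1 point per library (knockout, circles, left of wild type, squares). The genes do not overlap each other in range, and within each gene the libraries lie close together compared with the distance from Rn7sk (34460 in knockout lung) to H19 (0.242 in knockout lung).

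Between genotypes, none of the 7 RNAs with enough counts to test passed the threshold in either direction. Across all 19832 genes tested, edgeR's quasi-likelihood test called 7 (0.0353%) at an adjusted p under 0.05, so few calls were made anywhere. The number of the 7 RNAs with an unadjusted p under 0.05 was 0 as well, against 2.87% of all genes tested. DESeq2, which called 60 of 21677 genes (0.277%), also called 0 of them, with 0 at an unadjusted p under 0.05. Of the 7, 3 had a positive log2 fold change (Rn7sk, Neat1 and Meg3) and 4 a negative one (Malat1, Gas5, Snhg1 and Kcnq1ot1), beside 9529 positive of 19832 over all genes tested, and their median was -0.02, beside -0.0068 over all genes tested. The group values overlapped for 6 of the 7. The exception was Meg3, for which every knockout library exceeded every wild type library. Over all genes tested, 2.11% showed that arrangement and 1.61% the opposite one. In bulk tissue, fewer cells of a type and less RNA per cell cannot be told apart.

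**Figure D2:**
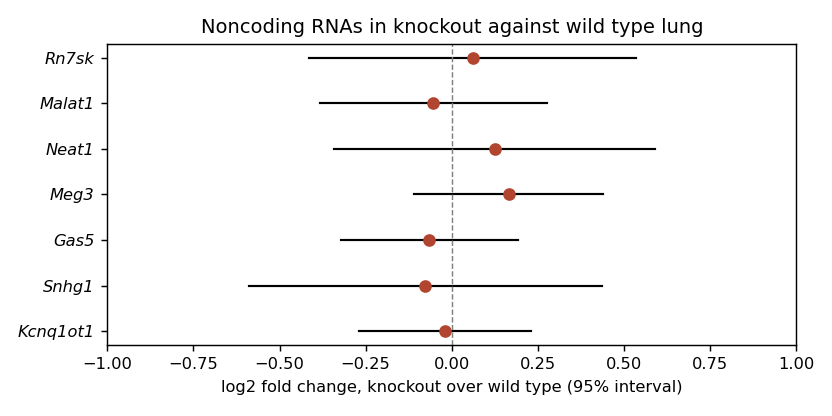
Log2 fold change (knockout over wild type, edgeR) of the 7 RNAs tested, with 95% intervals. All 7 intervals include 0, and the widest, that of Snhg1, runs from -0.59 to 0.44.

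Rn7sk, the RNA that holds P-TEFb inactive, had 13852, 12339 and 8028.5 CPM in KO3, KO4 and KO5. The wild type libraries WT2, WT3, WT4 and WT6 had 11581, 12405, 11981 and 7791 CPM. The lowest library of each genotype was again KO5 and WT6, and the other 5 lay between 11581 and 13852 CPM. The means were 11406 ± 3022 CPM in knockout lung (SD, n = 3) and 10940 ± 2126 CPM in wild type lung (SD, n = 4). The log2 fold change was 0.06 ± 0.22 (SE, 95% interval -0.41 to 0.54, adjusted p = 0.99984 by edgeR), so that the data allow 0.750 to 1.45 times the wild type level. Its direction depended on single libraries, with -0.11 when KO3 was left out, -0.0011 when KO4 was left out and -0.071 when WT6 was left out. Leaving out KO5 gave 0.26, and leaving out WT6 and KO5 together gave 0.13. As a share of counts, Rn7sk took 1.35%, 1.21% and 0.848% in KO3, KO4 and KO5, against 1.17%, 1.201%, 1.15% and 0.815% in WT2, WT3, WT4 and WT6. Counting error is small at this depth, with an exact 95% binomial interval of 0.843% to 0.853% in KO5. Copies derived from 7SK are scattered through mammalian genomes, and the sources used here do not say how reads matching several copies were counted.

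**Figure D3:**
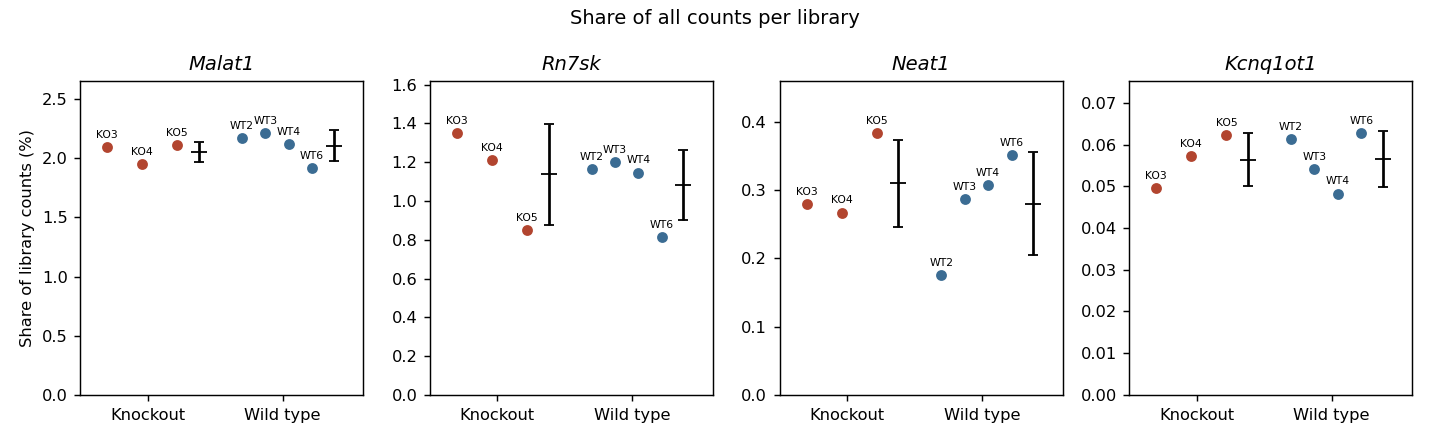
Share of all counts (%) in each library for Malat1, Rn7sk, Neat1 and Kcnq1ot1, with knockout libraries left of wild type libraries, a bar at each mean and whiskers of 1 SD (n = 3 and n = 4). The groups overlap in every panel, KO5 (0.848%) and WT6 (0.815%) are lowest for Rn7sk, and WT2 (0.175%) is lowest for Neat1.

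The 2 libraries with least Rn7sk had the highest sum of the rows for 7SL, the RNA of the signal recognition particle. It is likewise a product of RNA polymerase III. The rows Rn7s1, Rn7s2 and Rn7s6 summed to 16.6, 8.47 and 88.3 CPM in KO3, KO4 and KO5, against 13.1, 9.71, 24.4 and 80.8 CPM in WT2, WT3, WT4 and WT6. The ratio of Rn7sk to this sum was therefore 91.0 in KO5 and 96.4 in WT6, and lay between 492 and 1458 in the other 5 libraries. How alike these 7SL rows are was not examined, and the sources used here do not say how reads matching several copies were counted. Their sum may therefore miss or share reads of 7SL. Rn7sk reached 0.613 of the mean of KO3 and KO4 in KO5, and 0.650 of the mean of the other wild type libraries in WT6. Scarna2, a guide RNA of Cajal bodies, also stood higher in the pair, at 90.9 CPM in KO5 and 88.5 CPM in WT6 against 41.1 to 50.3 CPM in the rest.

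Marker sums of 4 cell types were highest or lowest in both libraries of this pair. The sums of fibroblast, heart muscle, skeletal muscle, plasma cell, B cell, neutrophil and proliferation markers were neither. Of single genes tested, 16.7% were highest and 16.9% lowest in both. Markers of mesothelium, the cell layer that covers the lung, summed to 223 CPM in KO5 and 229 CPM in WT6 against 106 to 140 CPM in the others, with 6 of 7 markers highest in both. Adipocyte markers were highest in both for 5 of 6, with sums of 56.9 (KO5) and 157 (WT6) against 27.9 to 45.7 elsewhere, all in CPM. Endothelial markers were lowest as a sum in this pair, at 2422 CPM in KO5 and 2702 CPM in WT6 against 2826 to 3312 CPM in the others, with 3 of 6 markers lowest in both. Alveolar epithelial markers summed to 12106 CPM in KO5 and 13765 CPM in WT6 against 14049 to 17255 CPM in the others, with 2 of 6 lowest in both and 1 highest in both. By genotype, the mesothelial sum ran from 106 to 223 CPM in knockout lung and from 108 to 229 CPM in wild type lung. The part of these cell types in the Rn7sk and 7SL values was not tested. Mitochondrially encoded genes took 2.23% of counts in KO5 and 2.36% in WT6, within the range of 2.20% to 3.64% of the other 5 libraries.

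**Figure D4:**
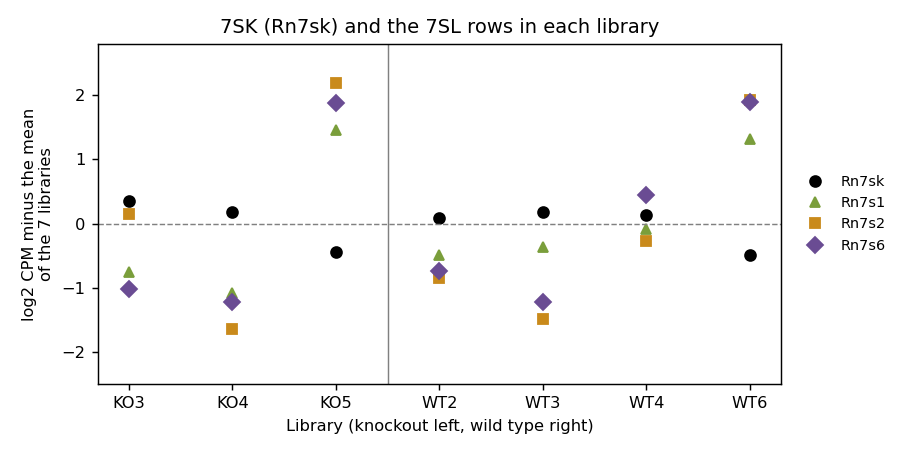
Log2 CPM of Rn7sk and of the 7SL rows Rn7s1, Rn7s2 and Rn7s6 in each library, each gene centred on its mean over the 7 libraries, with knockout libraries left of wild type libraries. In KO5 and WT6 all 3 7SL rows lie above their means (Rn7s2 at 41.1 and 33.9 CPM) while Rn7sk lies below its mean (8028.5 and 7791 CPM).

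The genes closest to Rn7sk in their pattern over the 7 libraries were Zfp143, Erg, Nono, Gins4 and Rpl21. Likeness was the mean absolute difference of log2 CPM after centring each gene, over 9913 named genes with a mean of at least 10 CPM. The difference was 0.04 for each of the 5, against a median of 0.27 over all genes compared. All 5 shared the low values of KO5 and WT6, which follows largely from choosing them by likeness. Nono, a paraspeckle protein, had 203, 196 and 131 CPM in KO3, KO4 and KO5, against 197, 195, 189 and 123 CPM in WT2, WT3, WT4 and WT6.

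No protein partner of 7SK was called. Of 12 proteins of the 7SK particle and of P-TEFb, all 12 were tested, 0 were called, 5 had a positive log2 fold change, and the median was -0.02. Larp7, the protein that binds the 3′ end of 7SK, averaged 17.0 ± 1.38 CPM in knockout lung and 19.7 ± 2.10 CPM in wild type lung (SD, n = 3 and n = 4), a log2 fold change of -0.22. The P-TEFb kinase Cdk9 had a log2 fold change of 0.07, the elongation factor Ell2 0.09 and the splicing factor Srsf2 -0.07. For the 19 proteins that transcribe or regulate RNA polymerase III genes, the numbers were 0 called, 4 positive and a median of -0.05. Their summed level was lowest in KO5 (605 CPM) and WT6 (601 CPM), against 663 to 724 CPM in the others. Singly, 7 of these 19 were lowest in both libraries and 3 were highest in both. Among them Brf2, an initiation factor of 7SK and U6 type genes, had 10.003, 9.17 and 9.49 CPM in KO3, KO4 and KO5. Its values in WT2, WT3, WT4 and WT6 were 11.7, 12.1, 10.7 and 12.3 CPM. The Brf2 groups did not overlap, as held for the 1.61% of genes above, with a log2 fold change of -0.29 (adjusted p = 0.99984 by edgeR). Next by p came the repressor Maf1 (log2 fold change -0.17) and the polymerase subunits Polr3d (-0.24) and Polr3c (-0.13).

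Short structured RNAs could be tested for 5 of 14 listed, namely Rn7s1, Rn7s2, Rn7s6, Scarna2 and the vault RNA Vaultrc5, and 0 were called. Their log2 fold changes ran from -0.22 (Vaultrc5) to 0.54 (Rn7s2), and the Rn7s2 value has a standard error of 1.198, with 41.1 CPM in KO5 and 33.9 CPM in WT6 against 2.74 to 9.80 CPM in the rest. Of the 10 with a row, 6 were highest in both KO5 and WT6, beside 16.7% of all genes tested. These were the 7SL rows, Scarna2, Terc and Rny3. Rny3 had only 0 to 2 counts per library and Terc 2 to 17, so these rows do not count as separate cases of equal weight.

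Malat1, the RNA of nuclear speckles and the most abundant row of the table, had 21470, 19852 and 19989 CPM in KO3, KO4 and KO5. Its values were 21573, 22810, 22138 and 18339 CPM in WT2, WT3, WT4 and WT6. The ranges overlapped, with WT6 lowest of all libraries and WT3 highest. The means were 20437 ± 897 CPM in knockout lung (SD, n = 3) and 21215 ± 1983 CPM in wild type lung (SD, n = 4), and the log2 fold change was -0.05 ± 0.15 (SE, 95% interval -0.38 to 0.28, adjusted p = 0.99984 by edgeR). Malat1 and Kcnq1ot1 were the steadiest of the 8 RNAs, with coefficients of variation of 7.43% and 7.56% over the 7 libraries.

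No speckle protein was called either. All 14 speckle and SR proteins listed were tested, 0 were called, 6 had a positive log2 fold change and the median was -0.01, with values from -0.07 to 0.07. Summed, they were lowest in KO5 (3909 CPM) and WT6 (3813 CPM), against 4156 to 4419 CPM in the others. Singly, 6 of the 14 were lowest in both of these libraries and 1 was highest in both. The splicing factors of smallest p were Srsf1 and Srsf5 (both -0.07), Tra2b (0.07) and Tra2a (-0.04). The scaffold Son was not among them by p and had a log2 fold change of -0.02.

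Neat1, the RNA scaffold of paraspeckles, had 2872, 2716 and 3623 CPM in KO3, KO4 and KO5. The wild type values were 1742, 2954, 3210 and 3363 CPM in WT2, WT3, WT4 and WT6. WT2 stood lowest and KO5 highest, and the groups overlapped. The means were 3070 ± 485 CPM in knockout lung (SD, n = 3) and 2817 ± 737 CPM in wild type lung (SD, n = 4), with a log2 fold change of 0.12 ± 0.21 (SE, 95% interval -0.34 to 0.59, adjusted p = 0.99984 by edgeR). Here too the direction depended on single libraries. The log2 fold change was -0.05 without WT2 and -0.01 without KO5. Short and long Neat1 isoforms share their first part and cannot be told apart in counts per gene.

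The level of Neat1 relative to its neighbour Malat1 spread widely within each genotype. Neat1 counts were 13.4%, 13.7% and 18.1% of Malat1 counts in KO3, KO4 and KO5, against 8.07%, 12.9%, 14.5% and 18.3% in WT2, WT3, WT4 and WT6. The means of 15.1% ± 2.66 in knockout lung and 13.5% ± 4.25 in wild type lung (SD, n = 3 and n = 4) lay within 1 SD of each other, and the highest ratio of each genotype was in KO5 and WT6. Neat1 ranged 2.08-fold and Malat1 1.24-fold between the lowest and highest of the 7 libraries, both on the CPM scale.

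Paraspeckle proteins were all tested, 13 of 13, with 0 called, 7 positive and a median of 0.00027 on the log2 scale. The RNA-binding proteins Tardbp (log2 fold change 0.10) and Rbm14 (0.09) and the remodeller subunit Smarca4 (-0.06) were among the 4 of smallest p. The genes closest to Neat1 in pattern over the 7 libraries were Taf13 (mean absolute difference 0.07 in log2 CPM), Fam160a1 (0.08), Prdx3, Kctd9 and Ptp4a1 (0.09 each), against a median of 0.26. All 5 were lowest in WT2, as Neat1 was, which follows largely from choosing them by likeness.

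Rmrp and Rpph1 themselves are not analysed here, but 11 proteins of RNase P and RNase MRP had a row and 10 were tested. The number called was 0, 4 were positive, and the median log2 fold change was -0.13. Pop1, the large shared subunit, had a log2 fold change of -0.16, and the smaller subunits Rpp21, Rpp38 and Rpp14 had 0.16, -0.26 and -0.14. Rpp25 fell under the low-count filter.

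Gas5, a host of box C/D small nucleolar RNAs whose spliced product is degraded during translation (chromosome 1, 161034422 to 161038539, plus strand), had 41.4, 40.0 and 39.0 CPM in KO3, KO4 and KO5. Wild type lung gave 37.3, 48.6, 44.2 and 37.8 CPM in WT2, WT3, WT4 and WT6. The knockout libraries lay inside the wild type range. The log2 fold change was -0.07 ± 0.12 (SE, 95% interval -0.32 to 0.19, adjusted p = 0.99984 by edgeR).

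Snhg1, the host that neighbours Slc3a2 on chromosome 19 (8723475 to 8726443, plus strand), was the least precise RNA tested. It had 6.42, 5.86 and 8.40 CPM in KO3, KO4 and KO5, against 4.58, 7.60, 8.07 and 8.86 CPM in WT2, WT3, WT4 and WT6. Again KO5 and WT6 were the highest of their genotypes, and WT2 was the lowest library of all. The counts behind these values ran from 76 to 126 per library. The log2 fold change was -0.08 ± 0.23 (SE, 95% interval -0.59 to 0.44, adjusted p = 0.99984 by edgeR), which leaves 0.665 to 1.35 times the wild type level open to these data.

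Other small nucleolar RNA hosts gave 0 calls among 14 tested, with 10 positive and a median log2 fold change of 0.03. Snhg10 had 0.406, 0.891 and 0.290 CPM in KO3, KO4 and KO5, against 0.964, 1.21, 1.18 and 0.914 CPM in WT2, WT3, WT4 and WT6. Its groups did not overlap and its log2 fold change was -0.98 (adjusted p = 0.99984 by edgeR), at levels close to the 0.182 to 0.230 CPM that 3 counts stand for in these libraries. The next by p were Snhg16 (0.49), Snhg6 (0.26) and Snhg17 (-0.12), given as log2 fold changes, none past the threshold. Factors of nonsense-mediated decay, the pathway that removes Gas5, were all tested, 10 of 10, with 0 called, 8 positive and a median of 0.02. Among these the smallest p belonged to Smg9 (0.10), the helicase Upf1 (0.07), Smg5 (0.06) and the nuclease Smg6 (-0.03).

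Meg3, the maternally expressed RNA of the Dlk1-Meg3 imprinted domain (chromosome 12, 109541001 to 109571726, plus strand), had 14.46, 17.18 and 14.92 CPM in KO3, KO4 and KO5. In WT2, WT3, WT4 and WT6 it had 13.74, 14.43, 13.91 and 13.29 CPM. All 3 knockout libraries lay above all 4 wild type libraries, but KO3 and WT3 were only a few hundredths of a CPM apart. The means were 15.5 ± 1.46 CPM in knockout lung (SD, n = 3) and 13.8 ± 0.47 CPM in wild type lung (SD, n = 4). The log2 fold change was 0.17 ± 0.13 (SE, 95% interval -0.11 to 0.44, adjusted p = 0.99984 by edgeR), and between 0.08 and 0.21 with any 1 library left out. With 188 to 270 counts per library, it did not pass the test. Rnf34, Hdac1, Zfp800, Simc1 and Ube4a were closest to it in pattern, each with a mean absolute difference of 0.04 in log2 CPM against a median of 0.15.

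No other gene of the same domain was called. Of 6 listed genes, 4 were tested and 0 were called. All 4 had a negative log2 fold change, each smaller than its standard error, with a median of -0.13. The snoRNA host Rian had -0.03, the microRNA host Mirg -0.22, the retrotransposon-derived gene Rtl1 -0.28 and Begain -0.01. Scaling by library totals in place of TMM raises the median of all genes by 0.014, more than the size of the Begain value. Rian, the most abundant of these, had 11.8, 12.2 and 13.8 CPM in KO3, KO4 and KO5, against 9.94, 13.3, 13.7 and 14.6 CPM in WT2, WT3, WT4 and WT6, with full overlap. Dlk1 and Dio3 fell under the low-count filter.

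Kcnq1ot1, the unspliced antisense RNA of the Kcnq1 imprinted domain (chromosome 7, 143203458 to 143296549, minus strand, 93092 bases), had 509, 583 and 590 CPM in KO3, KO4 and KO5. In WT2, WT3, WT4 and WT6 it had 609, 560, 504 and 600 CPM. Both groups covered nearly the same range, with WT4 lowest and WT2 highest. The log2 fold change was -0.02 ± 0.11 (SE, 95% interval -0.27 to 0.23, adjusted p = 0.99984 by edgeR). It lies within Kcnq1 on the other strand. The sources used here give no strand setting for the counting, so reads of the 2 genes may be mixed. Kcnq1, a potassium channel, averaged 26.5 ± 3.21 CPM in knockout lung and 25.2 ± 5.14 CPM in wild type lung.

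H19, the maternally expressed RNA of the Igf2 domain (chromosome 7, 142575529 to 142578143, minus strand), was barely detected. It had 9, 14 and 4 counts in KO3, KO4 and KO5, against 4, 10, 11 and 7 counts in WT2, WT3, WT4 and WT6. These levels of 0.24 to 0.89 CPM fell under the low-count filter, and without that filter edgeR gave 0.16 ± 0.53 (log2 fold change and SE, adjusted p of 1). A difference of the size of its standard error was not detectable at this depth.

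In the joint Igf2-H19 and Kcnq1 domain, 9 of 12 listed genes had a row, 7 were tested and 0 were called, with 3 positive and a median log2 fold change of -0.11. The blood-cell tetraspanin Tspan32 had 5.54, 6.94 and 14.0 CPM in KO3, KO4 and KO5, against 6.63, 5.11, 4.81 and 7.17 CPM in WT2, WT3, WT4 and WT6, with a log2 fold change of 0.57 (adjusted p = 0.99984 by edgeR) and KO5 well above the rest. B cell markers, 5 genes, summed to 30.2 to 145 CPM in knockout lung and 16.1 to 43.9 CPM in wild type lung, with KO5 highest, and their part in the Tspan32 value was not tested. Cdkn1c, a growth-restraining cell cycle inhibitor that Kcnq1ot1 silences on the paternal chromosome, averaged 22.8 ± 7.35 CPM in knockout lung and 28.1 ± 9.84 CPM in wild type lung, a log2 fold change of -0.30. It was lowest in KO5 and WT6, at 14.5 and 14.6 CPM, against 25.5 to 35.7 CPM in the other libraries. Nap1l4 and Cd81, further genes of the domain, had -0.11 and -0.13. Another list of imprinted growth genes, which holds Cdkn1c again, was tested for 14 of 14 and gave 0 calls and 3 positive values with a median of -0.09, and the smallest p belonged to Plagl1 (-0.24), Impact (-0.18), Sgce (-0.15) and Igf2r (-0.09).

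Among 13 further long noncoding RNAs tested, 0 were called, 9 were positive and the median log2 fold change was 0.02. Xist, the RNA that coats the inactive X chromosome, had 11.7, 11.01 and 10.4 CPM in KO3, KO4 and KO5. In WT2, WT3, WT4 and WT6 it had 6.27, 5.62, 7.70 and 7.03 CPM. The groups did not overlap, and the log2 fold change was 0.73 ± 0.16 (SE, adjusted p = 0.503 by edgeR), which did not pass. The adjusted p was 0.0426 in DESeq2, which passes the threshold. Y-linked genes were expressed in all 7 libraries, the helicase gene Ddx3y at 101 to 133 CPM. Eif2s3y stood at 30.5 to 63.6, Kdm5d at 53.2 to 67.5 and Uty at 64.9 to 85.9 CPM. Every library of both genotypes thus held male RNA, and the cause of the Xist difference was not tested. Tsix, which overlaps Xist on the other strand, had a log2 fold change of 0.81 with overlapping groups, and without a known strand setting reads of the 2 cannot be told apart. Of their neighbours, Ftx had 0.22 and Jpx -0.26.

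Over the 12 partner lists together, 146 of 159 listed genes had a row and 134 were tested. The number called by edgeR was 0 and by DESeq2 1 (Xist). With a replicate block edgeR called 3 (Xist, Tsix and Rn7s6), but then only KO3 with WT3 and KO4 with WT4 bear on the genotype difference. For Rn7s6 these pairs went opposite ways, with 5.14 CPM in KO3 against 4.47 in WT3, and 4.46 in KO4 against 14.4 in WT4. In edgeR, 2 had an unadjusted p under 0.05 (Xist and Snhg10), a share of 1.49% beside the 2.87% of all genes tested. Positive log2 fold changes were found for 63 of the 134, with 9529 of 19832 positive over all genes tested, and the median was -0.0093, beside -0.0068 over all genes. By summed CPM, 3 further lists were lowest in KO5 and WT6. The list of the 7SK particle and P-TEFb had 1309 CPM in KO5 and 1319 CPM in WT6, against 1343 to 1415 CPM elsewhere. Much of this gap lay in Aff1, at 267 CPM (KO5) and 291 CPM (WT6) against 305 to 333 CPM elsewhere. Genes listed for the Igf2-H19 and Kcnq1 domain had 318 CPM (KO5) and 340 CPM (WT6), against 363 to 401 CPM elsewhere. The largest part was Cd81, at 160 CPM (KO5) and 187 CPM (WT6) against 221 to 244 CPM elsewhere. The other imprinted growth genes had 574 CPM (KO5) and 621 CPM (WT6), against 667 to 715 CPM. The further long noncoding RNAs were highest in the pair, at 712 CPM (KO5) and 722 CPM (WT6), against 663 to 708 CPM. Single genes followed these sums only in part. Of the 7SK list, 2 of 12 were lowest in both libraries and 1 highest. Around Kcnq1, 3 of 9 were lowest and 3 highest. Of the other imprinted genes, 6 of 14 were lowest in both and 0 highest. Of the long noncoding RNAs, 3 of 14 were highest in both and 0 lowest. Over all genes tested, 16.9% were lowest in both and 16.7% highest. Groups lay apart for 3, Xist higher and Snhg10 and Brf2 lower in knockout lung, beside 2.11% of all genes tested higher and 1.61% lower, so that 3 of 134 does not exceed the share over all genes.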

How the data were processed

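Total RNA of mouse lung was sequenced in 7 libraries. The deposited values are read counts per gene, whole numbers that the authors did not normalize. STAR, DESeq2 and mm10 are named in the submitters' processing notes. For the counting program, annotation, strand setting and library selection, the sources used here give nothing. Members and gene lists were chosen with earlier results of these data known.

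Counts were compared with edgeR 4.0.16 in R 4.3.3 (filterByExpr, TMM, robust quasi-likelihood test, two-sided, genotype as the only term), with Benjamini-Hochberg adjustment over all 19832 genes and a threshold of 0.05. The procedure was run on simulated counts with larger changes than those of the noncoding RNAs, and without the pattern that KO5 and WT6 share. That run therefore has no bearing on changes as small as theirs. Alternatives were other scalings, other filters, DESeq2 1.42.0, a replicate block and leaving out libraries. From each list, up to 4 genes of smallest p were named (1 such gene is not reported here); Nono and Rian values, Son, Kcnq1, Rpp25, Brf2 values and Scarna2 were given in more detail after their values were seen. The closest pair of libraries had a chi-square over its degrees of freedom of 4.67, so each counted once. Intervals of shares (95%, exact binomial) cover counting error only. Positions are from GENCODE M21 (GRCm38), and start sites from RefSeq, which had an entry for 5 members.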

Additional observations from a re-analysis of the deposited data

How the results depend on the processing

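None of the 7 RNAs tested was called under any of the alternatives, and the lowest adjusted p among them was 0.999. Malat1 stayed negative and Meg3 positive under all 15 alternatives. The number of genes called over the whole table was 7, and became 1 with at least 10 counts required in every library, 60 with DESeq2, 14 without WT6 and KO5, and 3 to 41 with any 1 library left out (3 without WT2, WT3 or WT4, and 41 without KO3). With the number in the titles as a replicate block, 140 genes were called, the log2 fold change of Neat1 turned to -0.14 and that of Kcnq1ot1 to 0.036. The same block moved Rn7sk to 0.10, Snhg1 to -0.35, Gas5 to -0.19 and Malat1 to -0.12, further from 0 than without it. That block pairs only KO3 with WT3 and KO4 with WT4, so the other libraries do not bear on its genotype difference. The deviations of these pairs correlated at 0.24 and 0.20, and those of the crossed pairs at 0.24 and 0.22. The shared numbers were therefore not shown to pair the libraries. Of the listed partner genes, Xist was called with DESeq2 (adjusted p = 0.0426) and with the block (0.0224), where Tsix (log2 fold change 1.91) and Rn7s6 (-0.85) were called as well. Leaving out 1 library moved the log2 fold changes between -0.11 and 0.26 for Rn7sk, -0.051 and 0.22 for Neat1, -0.12 and 0.013 for Gas5, -0.25 and 0.034 for Snhg1, -0.073 and 0.044 for Kcnq1ot1, -0.12 and -0.02 for Malat1, and 0.08 and 0.21 for Meg3. The cause of these changes was not tested. Mean summed shares moved by less than 1 SD under every denominator. Leaving out 1 library cannot move a group mean by 1 SD, so for this only the values are given. The means then ran from 3.45% to 3.63% in knockout lung and from 3.45% to 3.66% in wild type lung. Depth limits H19, at 4 to 14 counts per library.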
